A study of Mus musculus with 30 samples.

Results

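Microglia isolated from the forebrain of Il34 heterozygous mice (Het, 1 copy of Il34) were compared with microglia isolated from wild-type mice given anti-gp120, the control antibody. These are the control arms of 2 experiments, 4 animals each, and they hold 8 of the 30 samples in the series. Members were chosen from the labels, by tissue and arm. Each arm had 2 males and 2 females. The Het animals (1, 20, 21 and 23) belong to the genotype experiment, whose other arm is the Il34 knockout (KO, 3 animals), and the labels name no antibody for them. The anti-gp120 animals (1, 7, 8 and 15) belong to the antibody experiment, whose other arm is wild-type mice given anti-IL34 (4 animals). Animal numbers are shared between the experiments but name different mice. Every difference below is therefore a difference in Il34 copies, in experiment and in antibody treatment at the same time, and these cannot be told apart, because no experiment holds both arms. Age, strain, and the dose and schedule of the antibody are not given in the sources used here.

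Interleukin-34 is a ligand of the receptor tyrosine kinase encoded by Csf1r, on which microglia depend for survival. It is made mainly by neurons in the forebrain, and the other ligand, encoded by Csf1, is made by glia. The choroid plexus is the epithelium of the ventricles that secretes cerebrospinal fluid, and the ependyma is the ciliated epithelium that lines the ventricle walls; neither carries CD11b, the surface protein on which microglia are captured.

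Libraries held 15.8 to 39.8 M counts (M, mega) in Het isolates and 16.2 to 50.5 M in anti-gp120 isolates. Levels are counts per M (CPM) after TMM scaling. P2ry12, a purinergic receptor that marks microglia, stood at 1272, 1495, 2743 and 1701 CPM in Het isolates 1, 20, 21 and 23 and at 1576 to 2036 CPM in anti-gp120 isolates, against 32.9 to 59.9 CPM in the forebrain libraries of the same animals. The isolates also held RNA of other cells. The mean of 12 astrocyte markers, in log2(CPM + 0.5), ran from 6.95 to 8.47 in Het and from 7.38 to 9.08 in anti-gp120 isolates. Anti-gp120 isolate 15 stood apart, with the highest astrocyte mean of the 8 and 14.9% of its counts from the mitochondrial genome, against 4.75 to 10.2% in the 4 Het isolates.

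Il34 itself (GRCm38 chr8:110741829-110805924, minus strand) stood at 7.73, 9.82, 7.19 and 4.89 CPM in Het isolates 1, 20, 21 and 23, and at 9.83, 12.6, 12.7 and 17.1 CPM in anti-gp120 isolates 1, 15, 7 and 8. All Het values lay below all anti-gp120 values, although the nearest 2 were almost equal. The log2 fold change, Het minus anti-gp120, was -0.80 (SE 0.25) and did not pass the threshold (edgeR quasi-likelihood F test, Benjamini-Hochberg adjusted p 0.252). In forebrain, where the gene was read at 19.2 to 23.5 CPM in Het and 31.8 to 38.9 CPM in anti-gp120 animals, the log2 fold change was -0.75 (SE 0.09) and passed the threshold (adjusted edgeR p 0.00206). The antisense genes Gm15894 and Gm15895 overlap it, and strand use in the counting is not given in the sources used here. Csf1r was read at 2991, 3394, 5281 and 3850 CPM in Het isolates and at 5531, 3689, 4556 and 5194 CPM in anti-gp120 isolates. The arms overlapped, and the log2 difference of -0.29 was within its error (SE 0.30, adjusted edgeR p 0.884). Csf1 stood at 104 to 362 CPM in Het and at 274 to 582 CPM in anti-gp120 isolates (-0.99, SE 0.41, adjusted edgeR p 0.506).

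Genes of the choroid plexus and of motile cilia rose in Het isolates, and 9 genes fell, among them Lcn2, Serpina3n, Ackr1 and Egr3. Of 17140 genes tested, 324 were higher (1.89%) and 9 were lower (0.0525%) at an adjusted edgeR p under 0.05. An unadjusted p under 0.05 was reached by 1568 genes (9.15%), and DESeq2 called 624 higher (3.64%) and 124 lower (0.723%). The log2 fold changes of the 324 ran from 0.593 to 11.4, and the median over all genes tested was -0.03. Calls followed the span of the gene, introns included: from the 4285 genes of shortest span to the 4285 of longest, in 4 equal groups, 36, 64, 95 and 129 were higher and 6, 2, 1 and 0 lower, with medians of -0.10, -0.04, -0.01 and 0.02. The part of gene span in the calls was not tested. The count of 333 was 67 without anti-gp120 animal 8, 69 without Het animal 20, 85 without anti-gp120 animal 7, 92 without Het animal 21, 130 without Het animal 23 and 136 without anti-gp120 animal 15.

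**Figure D1:**
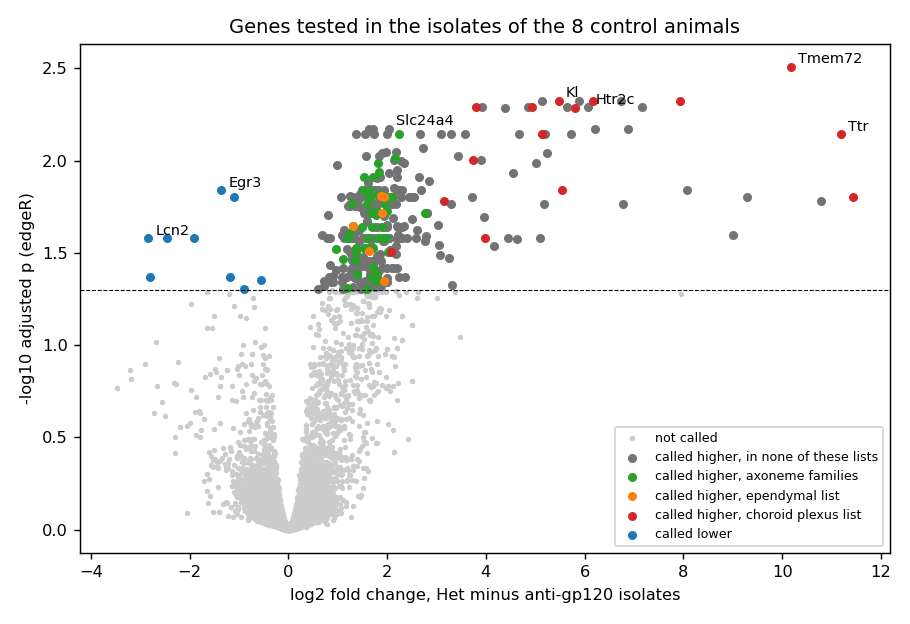
Each point is 1 of the 17140 genes tested, with the log2 fold change (Het minus anti-gp120 isolates) on the horizontal axis and -log10 of the adjusted edgeR p on the vertical axis; the dashed line is the threshold of 0.05. The 324 genes called higher form 1 arm on the right, with the choroid plexus list reaching 11.4, and 9 genes called lower stand on the left.

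All 15 of the listed choroid plexus markers were tested and all 15 were higher, where 1.89% of all genes were, with a median log2 fold change of 5.47. Ttr, which encodes transthyretin, the carrier of thyroxine that this epithelium secretes, was read at 1491, 3296, 3592 and 1502 CPM in Het isolates 1, 20, 21 and 23. It stood at 1.34, 0.146, 0.0617 and 2.90 CPM in anti-gp120 isolates 1, 15, 7 and 8 (log2 fold change 11.19, SE 1.15, adjusted edgeR p 0.0072). Every Het isolate was far above every anti-gp120 isolate. Tmem72, a membrane protein gene, summed to 3477 counts over the 4 Het isolates and to 3 over the 4 anti-gp120 isolates, a ratio per total count of 1420 (95% interval 485 to 6890, counting error only). Kl, which encodes the anti-ageing protein klotho, stood at 54.9, 98.3, 111 and 47.9 CPM in Het and at 1.5, 1.2, 1.73 and 2.84 CPM in anti-gp120 isolates (5.47, SE 0.42, adjusted edgeR p 0.00474). Folr1, a folate receptor, and Otx2, the transcription factor that specifies this epithelium, rose by 4.93 and 3.81 on the log2 scale. Kcne2, a potassium channel subunit, was read at 6.58 to 18.1 CPM in Het isolates and had no count in any anti-gp120 isolate. Het isolates 20 and 21 were higher than 1 and 23 for Ttr, Kl and Folr1 alike.

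Other genes, in the list and outside it, were among the 12 named by p-value. Htr2c, which is not in the list and encodes the serotonin 2C receptor, stood at 47.8, 96.1, 97.4 and 41.8 CPM in Het and at 0.792, 2.01, 0.370 and 1.07 CPM in anti-gp120 isolates (6.07, SE 0.53, adjusted edgeR p 0.00513). Outside the list as well, the tight-junction gene Cldn2 rose by 6.73 on the log2 scale and Atp2b3, a calcium pump gene, by 3.92. Slc4a5, a bicarbonate cotransporter gene, and Sostdc1, a secreted BMP and Wnt antagonist gene, are among the 15 listed markers and rose by 7.93 and 6.17. Ecrg4, which encodes a secreted peptide precursor, rose by 4.84 and Mfrp, a frizzled-related membrane protein gene, by 5.64. Lmx1a, a roof-plate transcription factor chosen after its values were seen, had 310 counts over the Het and 2 over the anti-gp120 isolates, a ratio per total count of 190 (95% interval 52.1 to 1570, counting error only). Folr1, Otx2, Ecrg4 and Mfrp overlap other annotated genes, so part of their reads may belong to those.

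**Figure D2:**
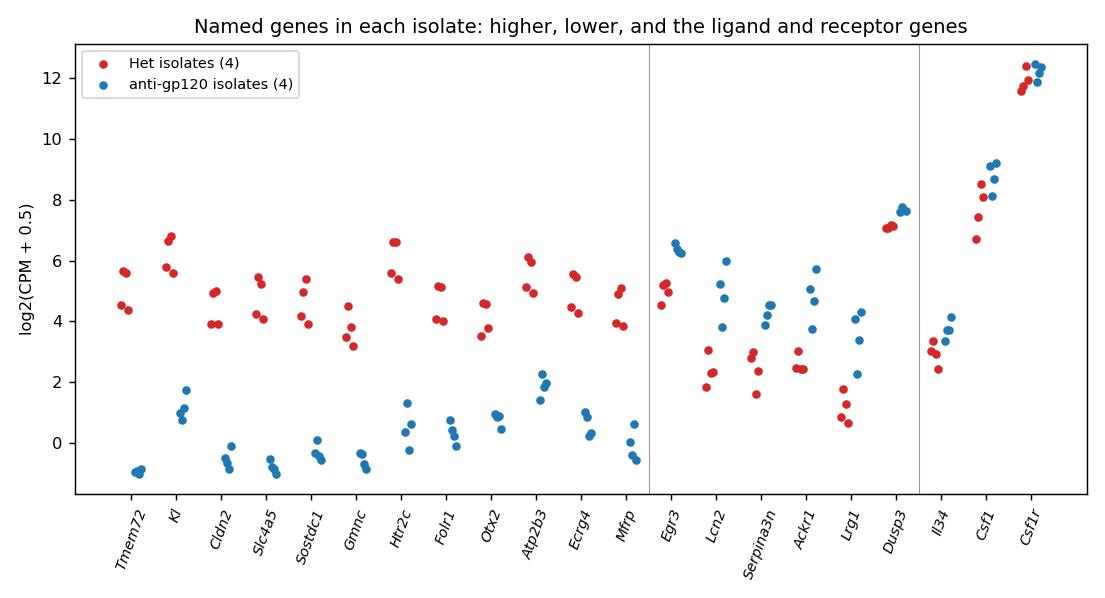
Log2(CPM + 0.5) of the named genes in each of the 8 isolates, Het in red and anti-gp120 in blue; grey lines part the 12 higher genes, 6 of the lower genes and the ligand and receptor genes. The arms do not overlap for any of the 12 higher genes, and they overlap for Csf1 and Csf1r. The 12 were picked by p-value from these same values, so their separation adds nothing to the calls.

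Cilium genes made up the next group, at a smaller fold. Of the 10 ependymal markers listed 8 were tested and 6 were higher (median 1.81; 1.89% of all genes were higher), among them Rsph1, a radial spoke gene, at 11.6, 14.5, 16.7 and 12.5 CPM in Het and 5.49, 4.02, 2.96 and 2.58 CPM in anti-gp120 isolates. Foxj1, the regulator of motile ciliogenesis, stood at 26.1, 27.4, 27.5 and 24.8 CPM in Het and at 13.3, 9.35, 5.31 and 5.86 CPM in anti-gp120 isolates (1.64, SE 0.28, adjusted edgeR p 0.0307). Both genes varied little among the 4 Het isolates, and anti-gp120 isolate 1 was the highest of its arm. Among 105 tested genes of axoneme families (Cfap, Dnah, Dnai, Dnaaf, Odad, Drc, Rsph, Tekt, Spef and Spag, a grouping chosen after the values were seen) 52 were higher and 0 lower, with a median of 1.36, where 1.89% of all genes were higher. Dnah11, an outer dynein arm heavy chain, rose by 1.99 and Cfap43 by 1.94. Gmnc, a coiled-coil regulator that starts the multiciliated programme, rose from 0.063 to 0.305 CPM in anti-gp120 isolates to 8.63 to 22.5 CPM in Het isolates (5.88, SE 0.48, adjusted edgeR p 0.00474). Trp73, a transcription factor of multiciliated cells, rose by 2.13 and Myb by 1.14. Ccno and Mcidas, regulators of the same programme, were not called: Ccno stood at 0.115 to 0.954 CPM in Het and 0.494 to 0.752 CPM in anti-gp120 isolates (-0.19, adjusted edgeR p 0.955), and Mcidas, at no more than 0.231 CPM in any of the 8, was below the expression filter. Trp73, Myb, Ccno and Mcidas were chosen after their values were seen, as were Rfx2 and Rfx3. The factors Rfx2 (0.35, adjusted edgeR p 0.808) and Rfx3 (0.43, adjusted edgeR p 0.233), which bind cilium gene promoters, did not pass the threshold. Of the 324 higher genes 71 were in the choroid plexus list, the ependymal list or the axoneme families, and 253 were in none of them.

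The higher genes were searched for the X-box, the motif that RFX factors bind in promoters of cilium genes. The motif, GTNNCCNNGGNNAC, which is its own reverse complement so that both strands are covered, was sought in promoters of 300 bases from RefSeq (GRCm38.p6), 250 before and 50 after the start. Of the 27025 genes with such a promoter, 583 had a match in at least 1 (2.16%). The share was 2.64% of the 12104 such genes that were tested and 10.1% of 227 higher genes. Among higher choroid plexus list members it was 0 of 10, too few genes to tell from the 2.64%. Examples of the motif near the start are shown for 3 higher genes with a match, the first by p-value. Genes on some chromosomes were left out of this choice. The 3 were taken from the genes already called, so their levels add nothing to the match. They are Catip (chr1:74361885-74362184, plus strand), which encodes a protein of ciliogenesis, Ak9 (chr10:41303684-41303983, plus strand), an adenylate kinase, and Ubxn10 (chr4:138725216-138725515, minus strand), which encodes a cilium-associated UBX protein. The capitals mark the match, and the sequences read 5′ to 3′ on the gene's strand.
Catip: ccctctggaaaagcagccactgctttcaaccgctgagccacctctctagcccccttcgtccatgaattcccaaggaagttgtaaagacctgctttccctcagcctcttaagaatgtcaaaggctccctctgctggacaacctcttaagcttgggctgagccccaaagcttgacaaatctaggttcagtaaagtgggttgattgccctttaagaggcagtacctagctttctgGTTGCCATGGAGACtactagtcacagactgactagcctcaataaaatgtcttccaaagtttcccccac
Ak9: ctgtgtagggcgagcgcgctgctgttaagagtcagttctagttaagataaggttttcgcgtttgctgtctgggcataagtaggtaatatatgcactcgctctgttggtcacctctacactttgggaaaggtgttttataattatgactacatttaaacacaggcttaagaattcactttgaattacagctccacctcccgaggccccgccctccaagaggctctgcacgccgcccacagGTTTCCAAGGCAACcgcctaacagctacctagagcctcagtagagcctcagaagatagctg
Ubxn10: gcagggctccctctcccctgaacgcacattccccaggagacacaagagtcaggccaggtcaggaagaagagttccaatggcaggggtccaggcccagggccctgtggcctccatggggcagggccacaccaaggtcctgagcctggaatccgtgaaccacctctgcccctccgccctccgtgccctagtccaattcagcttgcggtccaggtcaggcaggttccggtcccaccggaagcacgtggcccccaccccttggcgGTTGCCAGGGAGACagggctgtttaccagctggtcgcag
In Catip the match began at base 233, in Ak9 at base 240 and in Ubxn10 at base 262 of the window. Catip was read at 7.33, 8.42, 7.61 and 8.24 CPM in Het and at 3.33, 3.03, 2.78 and 3.02 CPM in anti-gp120 isolates. Ak9 stood at 13.6 to 17.2 CPM in Het and at 3.02 to 5.44 CPM in anti-gp120 isolates, and Ubxn10 at 6.38 to 8.53 and 1.48 to 2.48 CPM.

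Choroid plexus RNA was also read in isolates of the other arms. The 15 markers made up 0.292 to 0.669% of counts in Het isolates and 0.0106 to 0.019% in anti-gp120 isolates. In KO isolates the share was 0.229 to 0.582%, and in anti-IL34 isolates, which like the anti-gp120 isolates are from wild-type animals of the antibody experiment, 0.0181 to 0.332%. Ttr was at 1963 CPM in anti-IL34 isolate 10 and at 515 CPM in isolate 11, but at 0.316 and 18.9 CPM in isolates 2 and 24. High choroid plexus RNA was thus present in all 4 Het and all 3 KO isolates, in 2 of 4 anti-IL34 isolates and in no anti-gp120 isolate. The part of choroid plexus or ependymal tissue in the 324 calls was not tested. The mean over the 15 markers differed between Het and anti-gp120 isolates by 4.63 log2 units, and over the ependymal markers by 1.46. Each had an exact two-sided permutation p of 0.0286, the smallest that 4 against 4 can give (0.186 after Benjamini-Hochberg adjustment over 13 cell lists). The lists were chosen with earlier results of these data known, and their members were called in the same libraries. These p-values are therefore no separate support.

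**Figure D3:**
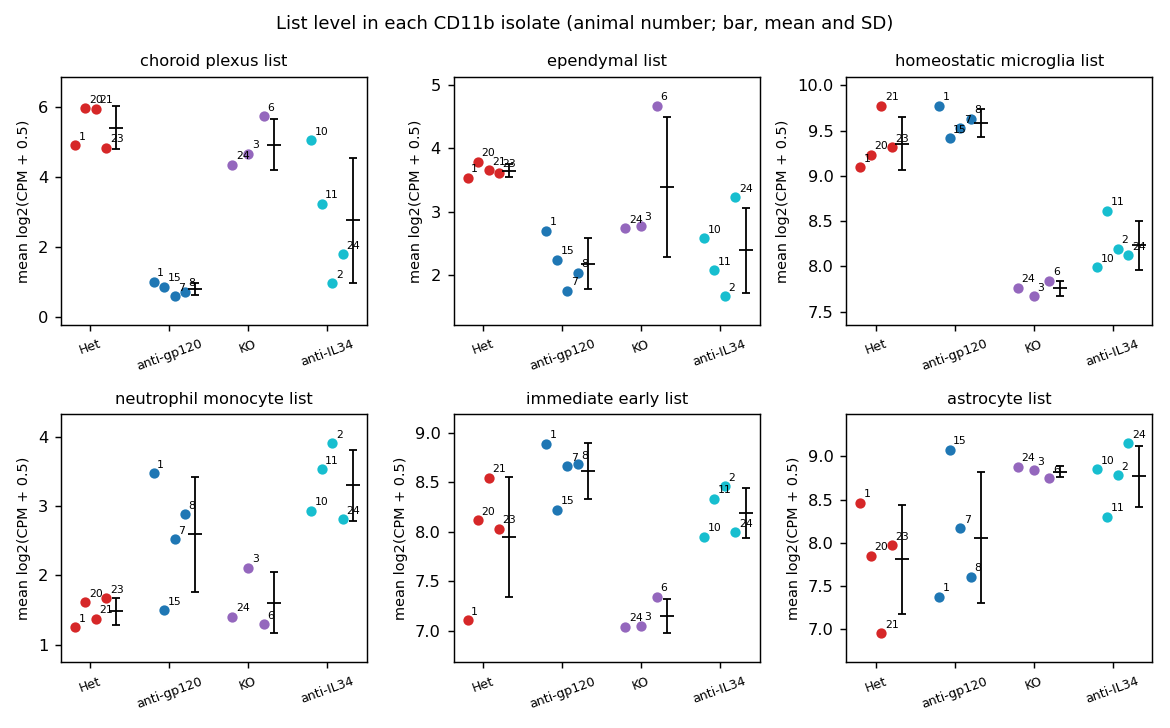
Mean log2(CPM + 0.5) of 6 gene lists in each CD11b isolate of the 4 arms, labelled by animal number, with the mean and SD of each arm as a black bar. Choroid plexus means of Het isolates (4.85 to 5.97) lie above all anti-gp120 isolates (0.588 to 1.00), and anti-IL34 isolates lie on both sides.

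The genes that fell formed a short list. Lcn2, which encodes the iron-carrier protein lipocalin 2, stood at 3.12, 7.80, 4.42 and 4.6 CPM in Het and at 37.0, 13.7, 26.6 and 62.8 CPM in anti-gp120 isolates (-2.84, SE 0.47, adjusted edgeR p 0.0264). Serpina3n, an acute-phase protease inhibitor, was at 2.60 to 7.52 CPM in Het and 14.4 to 22.9 CPM in anti-gp120 isolates (-1.90), and Lrg1, a leucine-rich glycoprotein gene, at 1.08 to 2.92 and 4.31 to 19.4 CPM (-2.80). Ackr1, a chemokine-binding receptor of venules, was at 5.08, 7.69, 4.88 and 4.94 CPM in Het and at 33.1, 12.9, 25.0 and 52.8 CPM in anti-gp120 isolates (-2.46, SE 0.41, adjusted edgeR p 0.0264). Its span overlaps that of Cadm3. Anti-gp120 isolate 15 was the lowest of its arm for Lcn2, Lrg1 and Ackr1, and isolate 8 the highest. Dusp3, a phosphatase gene, fell by 0.55 on the log2 scale. Also lower were the pseudogene Tmem181b-ps (-1.09) and Gm4949 (-0.89), named after their values were seen. The arms did not overlap for any of these genes, which were called from the same values, so this adds nothing to the calls. Leaving out 1 animal took the call from Egr3, Lcn2, Ackr1, Lrg1, Serpina3n and Dusp3: Egr3 lost it without Het animal 20 or 23 or anti-gp120 animal 7 or 8 (highest adjusted edgeR p 0.0533), Lcn2, Ackr1 and Lrg1 without any 1 of the animals except anti-gp120 animal 15 (highest 0.107, 0.106 and 0.176), Serpina3n without Het animal 20, 21 or 23 or anti-gp120 animal 7, 8 or 15 (highest 0.11), and Dusp3 without any 1 of the 8 (highest 0.217). The 12 higher named genes kept their call without each animal in turn. Next by p-value, and not called, were Nupr1 (-0.69), Gmppb (-0.67), S100a8, Noct (-0.92) and Fam217b (-0.49).

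Neutrophil and monocyte markers stood beside these. Of 13 tested (of 16 listed) 0 were called by edgeR and 8 by DESeq2, 13 of 13 were below 0 with a median of -1.59, and 9 had an unadjusted p under 0.05, where the shares over all genes were 0.723% for lower DESeq2 calls and 9.15% for the unadjusted p. S100a8, a neutrophil calcium-binding protein gene, was read at 4.10, 6.85, 5.37 and 7.21 CPM in Het and at 71.2, 7.72, 28.1 and 48.1 CPM in anti-gp120 isolates (-2.67, SE 0.62, adjusted edgeR p 0.0962). The summed level of the list was 56.6 to 75.3 CPM in Het isolates and 66.3 to 402 CPM in anti-gp120 isolates, with 0 to 1 and 0 to 2 of the 16 genes at 0. The part of these cells in the lower calls was not tested. Anti-gp120 isolate 15 was the lowest of its arm for both S100a8 and Lcn2, but the highest was isolate 1 for S100a8 and isolate 8 for Lcn2.

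Immediate-early genes, which respond within minutes to stimulation and to tissue handling, had 1 called member of 23, where 0.0525% of all genes were called lower. Egr3 stood at 22.7, 36.3, 37.7 and 31.1 CPM in Het and at 94.2, 83.1, 76.8 and 74.9 CPM in anti-gp120 isolates (-1.36, SE 0.18, adjusted edgeR p 0.0145). Of the 23 listed genes all 23 were below 0, with a median of -0.54, and 6 had an unadjusted p under 0.05, against 9.15% of all genes. The list means of the arms overlapped, at 7.11 to 8.55 in Het and 8.22 to 8.89 in anti-gp120 isolates (mean log2 CPM). Fos was at 253, 658, 720 and 481 CPM in Het and at 943, 691, 760 and 805 CPM in anti-gp120 isolates (-0.60, SE 0.32, adjusted edgeR p 0.693), and these ranges overlapped. Het isolate 1 was the lowest of the 8 for Fos, and it also had the highest mitochondrial share of its arm.

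Homeostatic genes, which define microglia, are read next. Of 18 homeostatic genes, 0 were called by edgeR or DESeq2, 1 had an unadjusted p under 0.05, and 16 were below 0 with a median of -0.22. With 1.89% of all genes called higher, 0.0525% lower and 9.15% at an unadjusted p under 0.05, these counts are near the background and are no result about this list. Tmem119, a microglial surface protein gene, was read at 360, 415, 541 and 433 CPM in Het and at 668, 529, 548 and 578 CPM in anti-gp120 isolates (-0.41, SE 0.17, adjusted edgeR p 0.537). Only Het isolate 21 reached into the anti-gp120 range. P2ry12 (0.01, SE 0.28), the fractalkine receptor gene Cx3cr1 (-0.17, SE 0.22) and Sall1, a transcription factor of microglial identity (-0.08, SE 0.15), differed by less than their error. No member was called by edgeR or DESeq2, in either direction, for interferon response (26 tested, median -0.43), MHC class I (11, -0.38), MHC class II (10, -0.06), complement (13, -0.39), lysosome (24, -0.30), Fc receptors (7, -0.45), Toll-like receptors (16, -0.35), cytokines and chemokines (22, -0.29), the ligand and receptor axis of Il34 and Csf1 (9, -0.58), microglial transcription factors (13, -0.18), purinergic genes (9, -0.16) or cell cycle (24, 0.35); unadjusted p-values under 0.05 numbered 0, 0, 0, 1, 0, 0, 0, 3, 3, 4, 1 and 4 in that order, where 9.15% of all genes had one. Disease-associated genes (26, -0.25) had 0 calls by edgeR, 4 unadjusted and 1 by DESeq2, Igf1. Igf1, a growth factor gene of the disease-associated list, was at 39.5 to 49.4 CPM in Het and at 15.4 to 29.7 CPM in anti-gp120 isolates, without overlap (0.81, SE 0.21, adjusted edgeR p 0.138). Metabolic and stress lists had 0 edgeR calls as well: TGF-beta (-0.15), heat shock (-0.06), unfolded-protein and amino-acid stress (-0.30), glycolysis and hypoxia (0.03), sterol and fatty acid synthesis (-0.03), sterol efflux (-0.23), ribosomal proteins (-0.12), nuclear respiratory chain genes (-0.01) and the mitochondrial genome (-0.38), with 2, 1, 0, 1, 0, 1, 2, 2 and 0 members at an unadjusted p under 0.05. DESeq2 called Tgfb2, Dnajb1 and Cox6b2 among them. The mitochondrial genome median turned to 0.19 without anti-gp120 animal 15. Lists of other cells had 0 calls by either tool: border macrophage (0.11), lymphocyte (-0.17), astrocyte (-0.23), oligodendrocyte lineage (0.29), excitatory neuron (-0.37), inhibitory neuron (0.15), endothelial (-0.10), mural (-0.32), meningeal fibroblast (0.20) and erythroid (-0.41), with 1 member in all, a fibroblast gene, at an unadjusted p under 0.05. The 4 Y-linked genes had a median of -0.22.

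**Figure D4:**
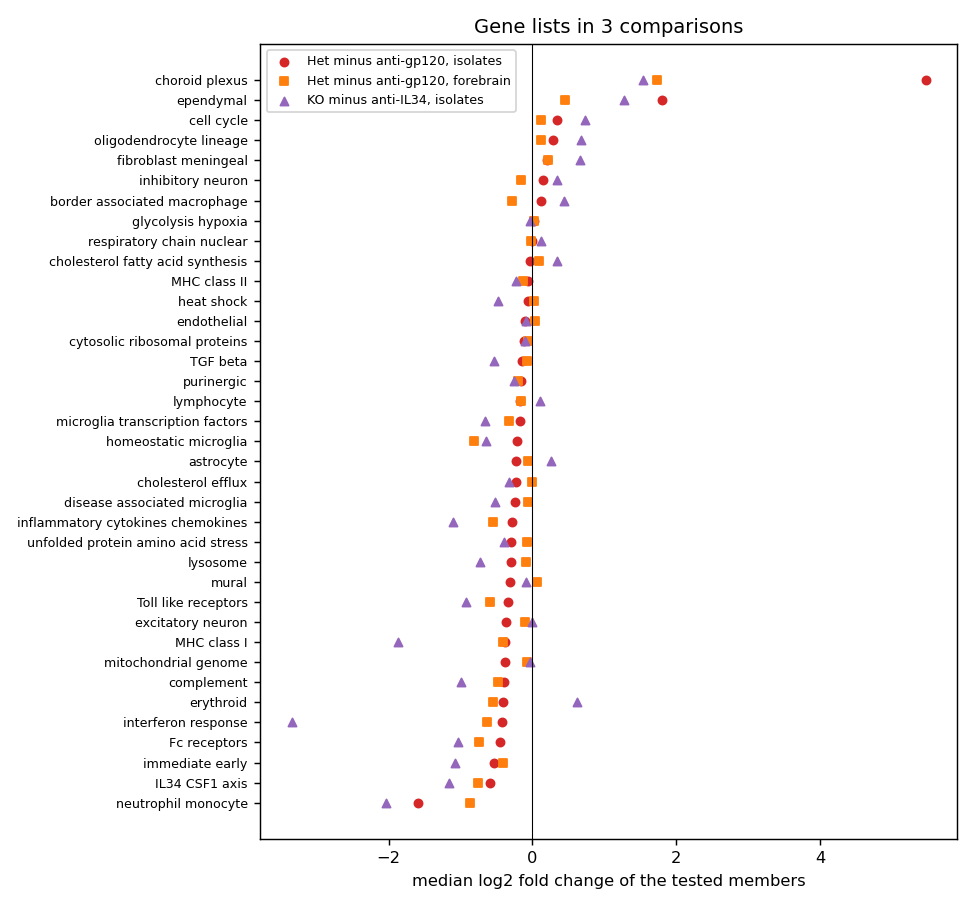
Median log2 fold change of the tested members of each gene list (rows) for Het minus anti-gp120 in isolates (circles) and forebrain (squares) and for KO minus anti-IL34 in isolates (triangles). In isolates of the control arms the choroid plexus list stands at 5.47 and the ependymal list at 1.81. The next median above 0 is that of the cell cycle list, 0.35, and the lowest is that of the neutrophil and monocyte list, -1.59.

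Homeostatic microglial genes were mostly lower in the forebrain of the same 8 Het and anti-gp120 animals. There 38 of 19209 genes were higher in Het (0.198%) and 119 lower (0.62%); the count of 157 was 67, 77 and 92 without Het animals 21, 1 and 20, and 83, 98 and 415 without anti-gp120 animals 1, 8 and 15. Homeostatic genes were lower for 14 of 18, with a median of -0.81: P2ry12 was read at 32.9 to 36.4 CPM in Het and 53.0 to 59.9 CPM in anti-gp120 animals (-0.69, SE 0.06, adjusted edgeR p 0.00101), and Csf1r at 43.7 to 48.9 and 64.8 to 97.0 CPM (-0.92, adjusted edgeR p 0.00153). Smaller shares were called lower in other microglial lists. Among them were 4 of 7 Fc receptor, 5 of 13 complement, 2 of 16 Toll-like receptor and 1 of 12 transcription factor genes. Of 24 disease-associated genes 2 were lower and 1 was higher. In bulk forebrain, fewer microglia and less RNA per microglial cell cannot be told apart. Choroid plexus genes were higher there too for 10 of 15 (median 1.74), and axoneme genes for 1 of 105 (median 0.12). Of the 324 genes higher in isolates, 304 were tested in forebrain, 258 had the same sign and 25 were called, which is 7.72% of the isolate calls and 65.8% of the forebrain's higher calls. Of the 9 lower genes 7 had the same sign there and 3 were called, Lcn2 (-3.33, SE 0.41, adjusted edgeR p 0.00299), Serpina3n (-0.90, 0.0359) and Tmem181b-ps (-0.80, 0.0011).

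The difference between the tissues was tested as an arm by tissue interaction over 16 libraries. The signed difference, Het minus anti-gp120, was higher in isolates than in forebrain for 177 of 19952 genes (0.887%) and lower for 3 (0.015%). With the animal as a replicate block, as each animal gave both libraries, 76 genes were called. Without Het animal 20 the count was 56, without anti-gp120 animals 7, 8 and 15 it was 60, 69 and 103, and without Het animals 21, 1 and 23 it was 71, 76 and 91. Htr2c, which neurons also express, was at 73.2 to 100 CPM in Het and 58.0 to 80.6 CPM in anti-gp120 forebrain, so the tissue difference of 5.65 (SE 0.49, adjusted edgeR p 0.000236) came with overlapping forebrain levels. Slc24a4, a potassium-dependent sodium-calcium exchanger gene, was at 7.51 to 13.2 CPM in Het and 2.27 to 2.53 CPM in anti-gp120 isolates, with a tissue difference of 2.16, and Car12, a carbonic anhydrase gene, had one of 5.69. Ackr1 was level in forebrain (0.08) and lower in isolates, a tissue difference of -2.56 (adjusted edgeR p 0.0139). Its span overlaps that of Cadm3, so part of its reads in either tissue may belong to that gene. With the animal as a replicate block Ackr1 kept its call (adjusted edgeR p 0.0393), but it lost it without any 1 of Het animals 1, 20, 21 and 23 or anti-gp120 animals 7 and 8 (highest 0.0743). Under the block the other 2 genes called lower, Tmc7 (-0.60) and Rmi1 (-0.71), lost their call (adjusted edgeR p 0.15 and 0.131). Egr3 (-1.01, adjusted edgeR p 0.0524) and Vcam1, an adhesion molecule gene (-0.63, 0.0595), came next. For homeostatic genes the median tissue difference was 0.57, with 12 of 18 at an unadjusted p under 0.05, which 8.22% of all genes reached there, and 0 called by edgeR.

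**Figure D5:**
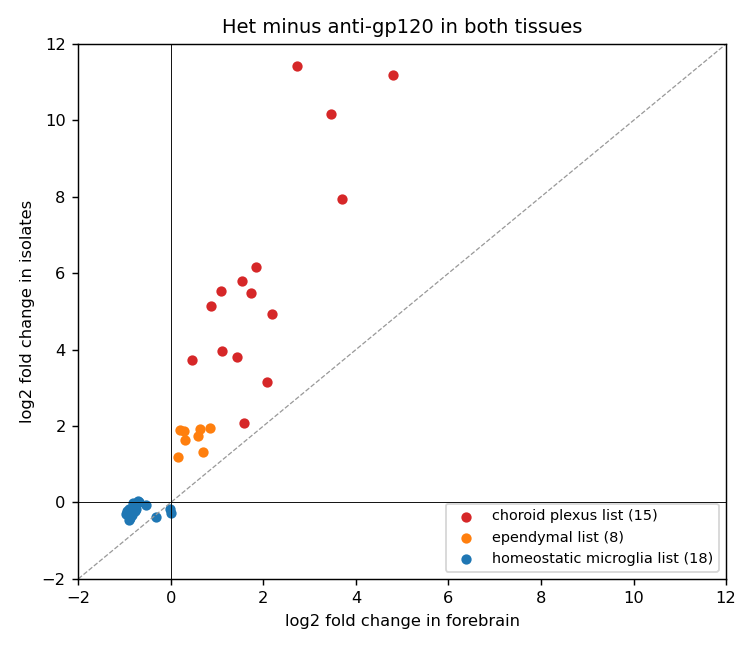
Log2 fold change, Het minus anti-gp120, in forebrain (horizontal) and isolates (vertical) for members of 3 gene lists tested in both; the dashed line marks equal change. All 15 choroid plexus genes lie above the line, and homeostatic genes cluster near 0 in isolates and near the median of -0.81 in forebrain.

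The treated arms of the same 2 experiments, KO and anti-IL34, have no library in common with these and also come from different experiments. Il34 was still counted in the libraries labelled KO, at 5.15 to 6.67 CPM in isolates and 6.78 to 8.75 CPM in forebrain, and stood at 14.9 to 18.0 CPM in anti-IL34 isolates. Between those 2 arms 236 of 18558 genes were higher in KO (1.27%) and 927 lower (5%). The count was 0 without anti-IL34 animal 11, the only female of that arm, and 213 without KO animal 6. All 324 genes higher in Het isolates had the same sign in that comparison, with a median of 1.14. The median over all genes tested there was 0.05. Of the 324, 4 were called (1.23%), near the 1.27% of all genes called higher, so this count is no result about them. Choroid plexus genes had a median of 1.54 there with 0 of 15 called and 0 at an unadjusted p under 0.05, which 25.9% of all genes reached. All 9 lower genes were below 0 and 5 were called, among them Lcn2 (-3.24, SE 0.38, adjusted edgeR p 0.0151) and Ackr1 (-2.43, SE 0.25, adjusted edgeR p 0.0148). Interferon-response genes, which were not called between the control arms, were lower for 23 of 26 (median -3.34). Of the genes called there, Fbn2 (1.5) and Bmp4 (0.99) had the smallest p among the higher, and the class I gene H2-Q7 (-3.68, near-identical to H2-Q6 and so uncertain) and Selp, which encodes P-selectin (-2.62), among the lower. Between the control arms these stood at 0.69, 0.63, -0.83 and -2.29 and were not called. For Selp the control arms were at 1.39, 10.3, 12.8 and 3.15 CPM in Het and 38.9, 12.5, 21.4 and 63.8 CPM in anti-gp120 isolates, with an overlap of 1 Het isolate (adjusted edgeR p 0.316). The difference between the 2 comparisons, tested over 15 libraries, was called for 0 of 18732 genes by edgeR (0%), with 740 (3.95%) at an unadjusted p under 0.05 and 27 called by DESeq2. That count does not show that the 2 comparisons were alike.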

How the data were processed

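RNA-seq read counts per gene, deposited by the authors, were used for 30 libraries, chiefly the 8 isolates of Het and anti-gp120 animals. Per the labels' protocols, mice were perfused with saline, cells were captured with CD11b antibody, and SMART-Seq v4 libraries were made from TRIzol RNA. The submitters' processing notes name STAR 2.7.5c, featureCounts 1.6.3, R 4.4.0 and GRCm38, without settings. The deposited Length column equals the whole gene span for 51183 of 51498 matched genes, so counts may include introns and nested genes. A further 6 columns matched no labelled sample and were not used. Genes without a name (8) took at most 5.33e-05% of counts.

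The test was that of edgeR 4.0.16, run in R 4.3.3 (TMM, default expression filter, sex as covariate, quasi-likelihood F test, Benjamini-Hochberg threshold 0.05), and with DESeq2 1.42.0 as an alternative; the code was tested on simulated data, where large changes were recovered and small ones were recovered only in part for the tissue difference and the difference between comparisons. Genes named are Il34, Csf1 and Csf1r, the 12 higher and 12 lower genes with the smallest p, and 5 per direction in the tissue and KO comparisons. The genes ranked by p had a mean of at least 10 CPM in the higher arm or group. Gm, Rik, BC, AC, AL, pseudogene and unnamed symbols were left out of that ranking. The 4 members of each of 38 lists with the smallest p were added, and others were chosen after their values were seen. The members and lists were chosen with earlier results of these data known. Replicates differed beyond sampling noise (chi-square per degree of freedom 21.3 to 394). Replicates are separate animals. Both libraries of an animal come from that animal by the labels, so they are paired; their deviations correlated at 0.0921 to 0.467. A result of the lower genes and a homeostatic gene are not reported here by name.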

Additional observations from a re-analysis of the deposited data

Results flagged for a closer look

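Values far from the other 3 of their arm were sought in 128 groups of 4, by the gap to the nearest value over the range, and 6 were found; chance gives about 1 in 20, so this number is no more than chance gives. Ackr1 was at 7.69 CPM in Het isolate 20 and Gmppb, which makes GDP-mannose, at 8.14 CPM in Het isolate 21, each the highest of its arm. The inhibitory neuron list was lowest in Het isolate 21, at a mean log2 CPM of 1.28. The interferon-response list was highest in anti-gp120 isolate 1, at 4.73. In anti-gp120 isolate 15 the amino-acid and unfolded-protein stress list, at 4.94, and the ribosomal protein list, at 4.14, met the same rule.

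The difference between arms differed between isolates and forebrain, by the interaction test, for 180 genes. That fit took the paired libraries of each animal as independent. Among named genes the signed difference was higher in isolates for Tmem72 (6.82 log2 units), Car12 (5.69), Htr2c (5.65), Gmnc (4.39), Sostdc1 (4.32), Kl (3.76), Atp2b3 (3.75), Folr1 (2.71), Otx2 (2.36), Slc24a4 (2.16) and Minar1 (1.62). It was lower in isolates for Ackr1 (-2.56), Rmi1, a genome-stability gene (-0.71), and Tmc7 (-0.60). Blocking on the animal gave fewer calls, 76, of which 70 were among the 180. Rmi1 and Tmc7 lost their call there.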

How the results depend on the processing

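The number of isolate calls (333) was 720 without a filter on low counts, 748 with DESeq2 and 160 with all 15 isolates in the fit, and 67 to 329 with 1 animal left out; the other settings gave 316 to 442. The share of higher calls, 97.3% at first, was 84.9% without the filter, 83.4% with DESeq2, 88.1% with all 15 isolates and 81.6% without anti-gp120 animal 15. With the choroid plexus, ependymal and mitochondrial lists left out before scaling, 316 genes were called, 309 of them among the 333. Forebrain calls (157) were 919 without the filter, 426 with DESeq2 and 67 to 415 with 1 animal left out. Tissue-difference calls (180) were 431 without the filter, 467 with DESeq2, 76 with the animal as a replicate block (70 of them among the 180) and 56 to 206 with 1 animal left out. Calls between KO and anti-IL34 (1163) were 2141 without the filter, 2748 with DESeq2, 488 with all 15 isolates and 0 to 1467 with 1 animal left out. The difference between the 2 comparisons (0 calls) had 1 without the filter, 27 with DESeq2 and 0 to 5 with 1 animal left out. Over all alternatives of the named genes, 787 values kept direction and side of the threshold, 94 lost the call, 22 gained it and 4 changed sign. With 1 animal left out, Csf1 in forebrain ran from -0.037 (without anti-gp120 animal 15) to 0.12, Il34 in the tissue difference from -0.28 to 0.20 (above 0 without Het animal 23 or, at 0.037, anti-gp120 animal 8), and Csf1 in the difference between comparisons from -0.062 (without Het animal 21) to 0.47. The 12 higher named genes kept their call under every alternative in which they were tested. Causes were not tested by any of these alternatives, those built on fewer genes or animals included. The number of animals limits all comparisons.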
